A study of Mus musculus with 16 samples.

Results

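The Hippo pathway genes described here are Yap1, Wwtr1, Tead1, Tead2, Tead3, Tead4, Lats1, Lats2, Nf2 and Vgll4. They were taken by gene symbol from a table of read counts in brain endothelial cells (bECs), where they are 10 of 37003 genes, and all 10 passed the filter on low counts. RNA was sequenced from bECs sorted as living (DAPI-), CD45- and CD31+ cells 72 h after surgery. Mice had either a sham operation or middle cerebral artery occlusion (MCAo), in which that artery was closed for 30 min and then reopened. YT-iKO mice carried the Pdgfb-iCreER-eGFP transgene together with Yap fl/fl and Taz fl/fl. The transgene gives a tamoxifen-inducible Cre recombinase under the Pdgfb promoter, which is active in endothelial cells. CTRL mice were littermates with the same floxed alleles and no transgene, and mice of both genotypes received tamoxifen before surgery. Each genotype had 4 libraries from sham mice (CTRL Sham, YT-iKO Sham) and 4 from mice with MCAo (CTRL MCAo, YT-iKO MCAo). Adult mice of both sexes were used, and each library was a pool of several mice. After MCAo the ischemic territory and the matching area of the other hemisphere were dissected, and whether a library held tissue of both is not given in the sources used here. P-values measure the spread between these pools.

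The Hippo pathway is a kinase cascade that limits the activity of the transcriptional coactivators YAP and TAZ. Nf2 (Merlin) brings the kinases LATS1 and LATS2 to the membrane for activation, and active LATS kinases phosphorylate YAP and TAZ, which are then held in the cytoplasm or degraded. Unphosphorylated YAP and TAZ enter the nucleus and bind TEAD factors on DNA, a place for which Vgll4 competes, and in endothelium they take part in vessel growth, junction remodelling and the response to flow. Much of this control acts on proteins and their location, which a count of RNA does not measure.

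Total counts per library ranged from 11418262 to 23074547 (median 16441012). Levels are given in CPM, counts per 1000000 of a library size scaled by edgeR's TMM factors, and levels of different genes are compared as CPM per kilobase of exon. The endothelial genes Cldn5 (group medians 900.2 to 1396 CPM) and Cdh5 (1083 to 1334 CPM) were high in every group, and all 15 endothelial markers were found. Pericyte markers were also present: 10 of 10 were found, with a summed level of 580.1 to 1729 CPM in a library, and Pdgfrb and Rgs5 were above 0 in every library. Summed levels of the 6 fibroblast markers were 19.7 to 42.2 CPM. Reads also lay on 1466 olfactory, vomeronasal and taste receptor genes, at 0.0413 CPM per kilobase in the lowest library (YT-iKO MCAo replicate 4) and 0.421 in the highest (YT-iKO Sham replicate 3). At this even density over all exons, such reads would make up 0.362% to 6.77% of a library. The 4 densest libraries were CTRL MCAo replicate 3, replicates 2 and 3 of YT-iKO MCAo and replicate 3 of YT-iKO Sham, and fold changes without these 4 libraries are given below as a setting chosen after the data were seen. In bulk RNA, fewer cells of a type and less RNA per cell cannot be told apart.

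In CTRL Sham, Wwtr1, which encodes TAZ, had the highest level per length of the 10 genes (55.4 ± 2.02 CPM per kilobase, SD, n = 4). It was followed by the kinase gene Lats2 (38.8 ± 1.86), Tead4 (20.5 ± 2.48) and Nf2 (18.4 ± 0.710). Lats1 (13.2 ± 0.887) and Yap1 (12.1 ± 0.0552) were next, then Vgll4 (8.64 ± 0.762), Tead2 (7.84 ± 0.335) and Tead1 (6.16 ± 0.366). Tead3 was the lowest at 0.387 ± 0.0324 CPM per kilobase. Each gene was above the next in 4 of 4 CTRL Sham libraries, except that Tead4 was above Nf2, and Vgll4 above Tead2, in 3 of 4. CTRL Sham libraries thus held more Wwtr1 than Yap1 RNA per length, more Lats2 than Lats1, and Tead4 as the most abundant of the Tead genes.

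**Figure D1:**
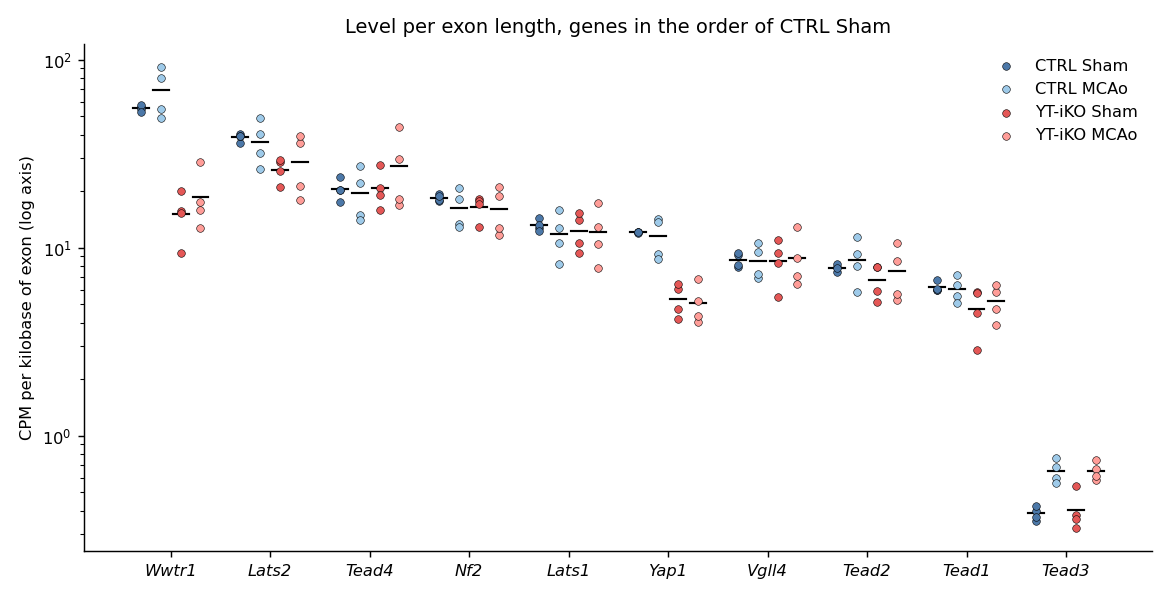
Level of the 10 genes in CPM per kilobase of exon (log axis) in each library, with genes in their order in CTRL Sham and 4 points per group. Bars mark the mean of 4 libraries. Wwtr1 and Yap1 of the YT-iKO groups lie below the CTRL groups, and Tead3 lies under 1 CPM per kilobase in every library.

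In YT-iKO Sham the order differed by the place of the 2 targeted genes. Lats2 was first (26.1 ± 3.72 CPM per kilobase), and Wwtr1 (15.1 ± 4.37) came after Tead4 and Nf2, although it was below Nf2 in only 3 of 4 libraries. Yap1 (5.33 ± 1.05) was below Tead2 in 4 of 4 libraries. In YT-iKO MCAo, Yap1 (5.10 ± 1.25) and Tead1 (5.19 ± 1.11) could not be ordered, since Tead1 was higher in 2 of 4 libraries. The same held there for Wwtr1 (18.6 ± 6.89) and Nf2 (16.1 ± 4.58), with Wwtr1 higher in 2 of 4 libraries. In CTRL MCAo, Wwtr1 was first (68.8 ± 20.2 CPM per kilobase) in 4 of 4 libraries, while Lats1 and Yap1, and Tead2 and Vgll4, could not be ordered (2 of 4 libraries each).

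Yap1 (ENSMUSG00000053110) lies on the minus strand of GRCm38 chromosome 9 from 7931999 to 8004596, with 9257 bases of annotated exon. It encodes YAP and was the first of the targeted genes. After sham surgery the CTRL libraries had 112.0, 112.4, 111.1 and 111.8 CPM, and the YT-iKO libraries 55.7, 59.2, 38.6 and 43.9 CPM. After MCAo, CTRL libraries had 132.6, 86.3, 80.5 and 126.3 CPM and YT-iKO libraries 48.6, 37.1, 40.2 and 63.0 CPM. No YT-iKO library reached any CTRL library after the same surgery. Yap1 in YT-iKO was at 44.1 ± 8.67% (SD, n = 4) of the CTRL mean after sham and 44.4 ± 10.9% after MCAo. On the log2 scale it fell by 1.18 after sham (95% interval −1.64 to −0.720, adjusted p = 0.0371) and by 1.17 after MCAo (−1.63 to −0.712, adjusted p = 0.0478), by edgeR's quasi-likelihood test over all genes. Leaving out either replicate 2 of CTRL Sham or replicate 4 of YT-iKO Sham ended both calls, with an adjusted p of 0.186 and 0.359 after sham and of 0.129 and 0.115 after MCAo. The MCAo call also ended with replicate 4 of CTRL MCAo (0.473) or replicate 3 of YT-iKO MCAo (0.250) left out. Without the 4 libraries of highest receptor density, Yap1 was called in both (−1.08, adjusted p = 3.95e-04 by edgeR; −1.10, 0.00430).

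Wwtr1 (ENSMUSG00000027803; minus strand of chromosome 3, 57455649 to 57575910, 4779 bases of exon) showed the larger loss. After sham it had 267.6, 263.0, 275.7 and 252.6 CPM in CTRL and 74.7, 95.9, 45.0 and 72.8 CPM in YT-iKO. After MCAo it had 437.6, 261.2, 234.5 and 381.8 CPM in CTRL and 83.6, 75.6, 60.7 and 136.4 CPM in YT-iKO. The highest YT-iKO library lay well under the lowest CTRL library after either operation. Wwtr1 was at 27.2 ± 7.88% (SD, n = 4) of the CTRL mean after sham and 27.1 ± 10.02% after MCAo. It fell by 1.88 on the log2 scale in both comparisons (95% interval −2.45 to −1.30 after sham and −2.46 to −1.31 after MCAo, adjusted p = 0.00381 and 0.00356 by edgeR). It was called under every alternative, each library left out included. The counts cover all exons of a gene, also those that recombination does not remove, so the percentages are not a measure of how many cells recombined. Taking off the even background and scaling by abundant genes (TMM factors from the 9132 genes of at least 10 CPM) gave 46.9 ± 3.93% for Yap1 and 29.2 ± 5.28% for Wwtr1 after sham, and 43.3 ± 2.05% and 26.9 ± 4.84% after MCAo.

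**Figure D2:**
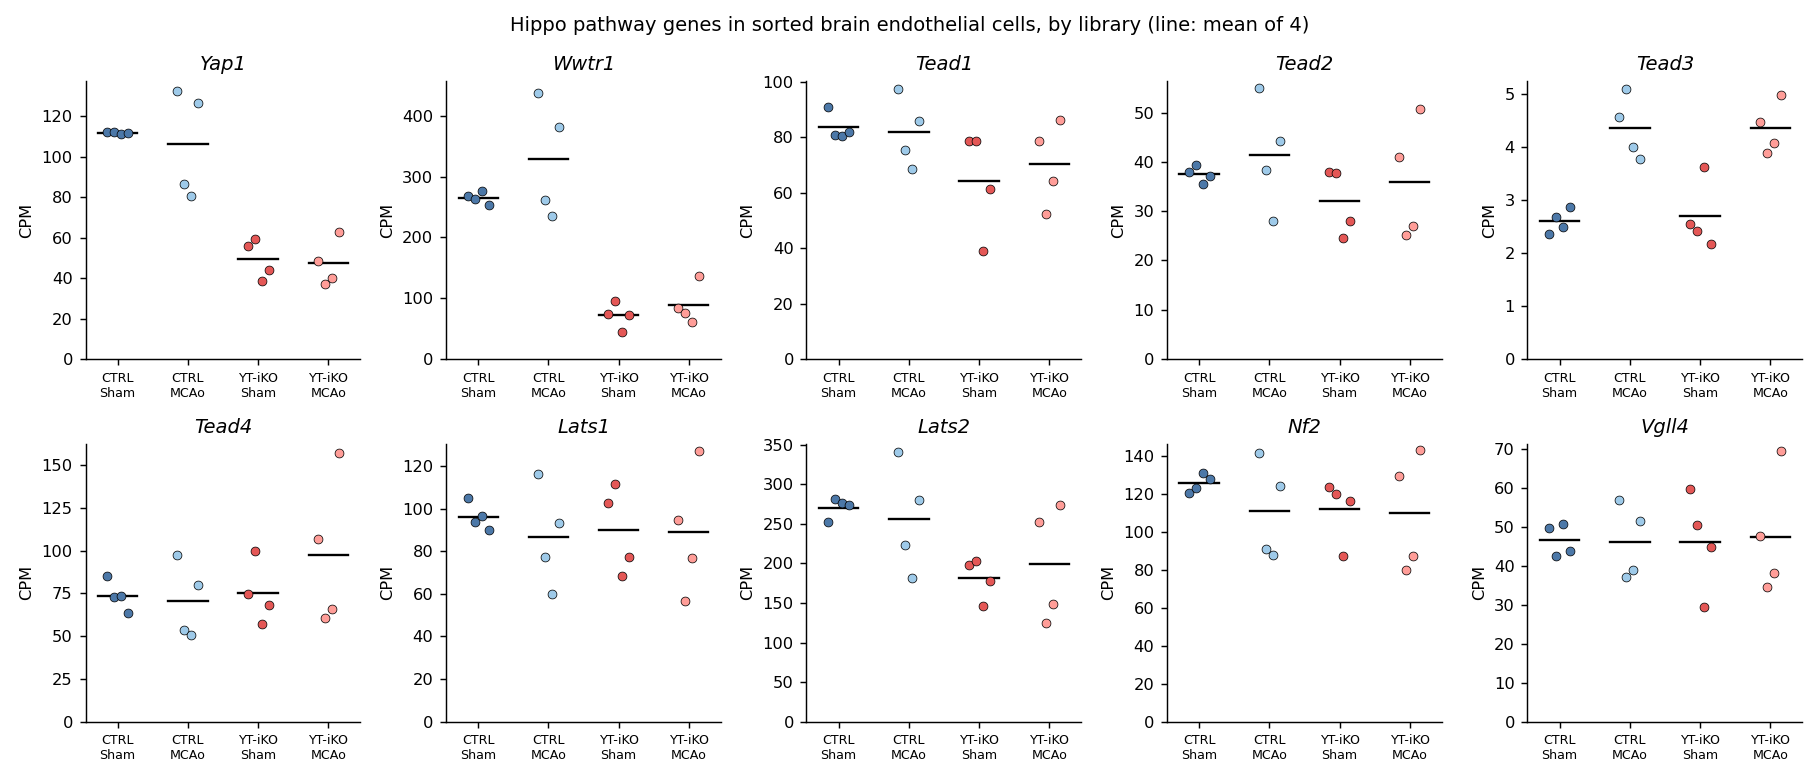
Level of each gene in CPM (y axis from 0) in the 4 libraries of each group, with the mean as a line. YT-iKO libraries of Yap1 and Wwtr1 lie below all CTRL libraries, MCAo libraries of Tead3 lie above all sham libraries, and groups overlap for most other genes.

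The promoter windows of these genes were searched for CATTCC, the core of the sequence that TEAD factors bind, on both strands (GGAATG on the other). Windows run from 250 bases before to 50 after an annotated start (RefSeq, GRCm38.p6). Of the 10 genes, 8 have windows in the table, and Tead1 and Tead4 do not. The 6 letters were present for 5 of 8, namely Yap1, Wwtr1, Tead3, Lats2 and Vgll4, and absent for Tead2, Lats1 and Nf2. They occurred in 7 of 13 windows of the members, in 14.7% of the 32851 windows searched, and for 16.6% of the genes with such a window. The search left out the windows of a single chromosome. Windows of a gene can overlap, and those of Wwtr1 hold the same match. A match is a description of letters, not of binding.

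Stretches are shown for the targeted genes and for the kinase gene Lats2, also known as a YAP/TAZ target and described further on. Each is written 5′ to 3′ on the gene's strand, outside annotated exons except for the first bases of the transcript in the last one, with matches in capitals.
Yap1, chr9:8004597-8004829, minus strand: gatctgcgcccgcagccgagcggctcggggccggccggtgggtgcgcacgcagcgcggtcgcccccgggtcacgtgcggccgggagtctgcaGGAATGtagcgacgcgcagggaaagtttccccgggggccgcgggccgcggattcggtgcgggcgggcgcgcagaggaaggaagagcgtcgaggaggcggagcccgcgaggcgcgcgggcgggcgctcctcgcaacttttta
Wwtr1, chr3:57575911-57576160, minus strand: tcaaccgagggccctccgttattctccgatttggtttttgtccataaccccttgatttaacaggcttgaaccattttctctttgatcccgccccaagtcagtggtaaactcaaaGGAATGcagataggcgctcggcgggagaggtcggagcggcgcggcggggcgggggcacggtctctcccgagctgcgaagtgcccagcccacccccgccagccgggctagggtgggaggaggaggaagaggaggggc
Lats2, chr14:57746102-57746131, minus strand: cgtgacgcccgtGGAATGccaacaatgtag
The match lies 141 bases before the start of Yap1 and 136 before the nearer start of Wwtr1, and it begins at base 5 of the Lats2 transcript. A second Lats2 window, at chr14:57734369-57734668, holds none. Both lie inside the annotated Lats2 locus, which begins at 57758388 on this strand, and no Lats2 window lies at that end.

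Yap1 and Wwtr1 were the 2 of the 10 genes called between genotypes after sham, and the same 2 were called after MCAo. Over all 31085 genes tested, 0.0965% were called after sham and 0.0708% after MCAo (edgeR, adjusted p under 0.1). In CPM, 4 of 10 had groups that did not overlap after sham, all lower in YT-iKO (Yap1, Wwtr1, Tead1 and Lats2), against 3.85% of all genes tested in either direction. The share was 6.46% of the 9132 genes that averaged 10 CPM or more, of which 560 were lower and 30 higher in YT-iKO, so the direction of the 4 members was that of most separated genes. After MCAo it was 2 of 10, against 0.981%. The median log2 fold change of the 10 genes was −0.19 after sham, where it was −0.13 over the genes of at least 10 CPM and 0.11 over all genes tested, and −0.11 after MCAo (0.01 and 0.03). The CTRL groups also serve the MCAo comparisons below, so these are not independent of each other.

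Wwtr1 lost a larger share than Yap1. The ratio of Wwtr1 to Yap1 in CPM per kilobase does not depend on the scaling of a library. After sham it was 4.63, 4.53, 4.805 and 4.38 in CTRL and 2.60, 3.14, 2.26 and 3.21 in YT-iKO. After MCAo it was 6.39, 5.86, 5.64 and 5.85 in CTRL and 3.33, 3.95, 2.93 and 4.19 in YT-iKO. No YT-iKO library reached a CTRL library of the same surgery. The log2 ratio differed by −0.72 after sham and −0.73 after MCAo (exact two-sided permutation test, p = 0.0286 each, 0.0457 adjusted over 8 ratio tests). In CTRL mice the ratio was also higher after MCAo than after sham, by 0.37 on the log2 scale in 4 of 4 libraries (exact p = 0.0286, adjusted 0.0457). In YT-iKO mice the groups overlapped and the difference was 0.36 (exact p = 0.114, adjusted 0.152). Whether this differed between genotypes was not tested.

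The Tead genes encode the factors through which YAP and TAZ bind DNA, and none of them was called between genotypes. Tead1 (ENSMUSG00000055320; plus strand of chromosome 7, 112679318 to 112906807) had 91.0, 80.9, 80.6 and 81.7 CPM in CTRL Sham and 78.6, 78.5, 38.9 and 61.2 CPM in YT-iKO Sham. The groups did not overlap, though YT-iKO Sham replicates 1 and 2 came close to the lowest CTRL library. The log2 fold change was −0.38 (standard error 0.22, adjusted p = 0.990, edgeR). After MCAo the groups overlapped, with a mean of 81.8 ± 12.6 CPM in CTRL and 70.4 ± 15.1 in YT-iKO (SD, n = 4; −0.22, adjusted p = 1.00).

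Tead2 lies on the plus strand of chromosome 7 from 45215753 to 45233644. Its level was 37.5 ± 1.60 CPM (SD, n = 4) in CTRL Sham and 32.1 ± 6.83 in YT-iKO Sham, and 41.4 ± 11.2 and 36.0 ± 12.1 after MCAo. Its groups overlapped in all 4 comparisons of 2 groups. Its annotated exons share 13 bases with Cd37 on the other strand, and Cd37 had at most 47 counts in a library.

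Tead4 (minus strand of chromosome 6, 128224288 to 128300823) was the most abundant Tead gene per length in all 4 groups. CTRL MCAo libraries had 97.6, 53.5, 50.5 and 80.0 CPM, and YT-iKO MCAo libraries 106.7, 60.8, 65.7 and 157.1 CPM. Replicates 2 and 3 were low in both groups, and the groups overlapped. These 4 libraries had totals of 11418262 to 12791352 counts, against 18662626 to 23074547 in the other MCAo libraries, and the part of this in the levels was not tested. The log2 fold change was 0.47 (95% interval −0.11 to 1.05, adjusted p = 1.00, edgeR), and 0.14 to 0.62 with 1 library left out. On a scale with TMM factors from the 9132 genes of at least 10 CPM, CTRL MCAo libraries lay between 62.4 and 75.8 CPM and YT-iKO MCAo libraries between 81.0 and 115.3 CPM. The groups no longer overlapped on that scale, and the fold change was 0.44 (standard error 0.12, 95% interval 0.18 to 0.70, adjusted p = 0.223 by edgeR). After sham the means were 73.7 ± 8.93 CPM in CTRL and 75.0 ± 17.9 in YT-iKO.

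Tead3 (minus strand of chromosome 17, 28331671 to 28350817) had only 32 to 89 counts in a library. Sham libraries had 2.36, 2.68, 2.49 and 2.86 CPM in CTRL and 2.56, 2.42, 3.63 and 2.17 CPM in YT-iKO. MCAo libraries had 4.56, 5.10, 4.00 and 3.78 CPM in CTRL and 4.46, 3.88, 4.08 and 4.98 CPM in YT-iKO. The lowest MCAo library was above the highest sham library in both genotypes. The log2 fold change with MCAo was 0.74 in CTRL (95% interval 0.18 to 1.31, adjusted p = 0.976) and 0.69 in YT-iKO (0.13 to 1.26, adjusted p = 1.00), by edgeR. Reads spread evenly at the receptor density would account for 43.2% to 58.3% of Tead3 counts in CTRL Sham and 44.5% to 77.9% in YT-iKO Sham. After MCAo this share was 20.7% to 53.6% in CTRL and 5.56% to 71.3% in YT-iKO. With those reads taken off, on the scale of abundant genes, log2(CPM + 1) still differed between MCAo and sham by 0.77 in CTRL and 0.75 in YT-iKO (exact permutation test, p = 0.0286 each). With the even reads left in, that scale gave 0.52 in YT-iKO (exact p = 0.0857). The summed fibroblast markers were also higher after MCAo in CTRL (0.71 on the log2 scale, exact p = 0.0286, no overlap; 0.53 in YT-iKO, exact p = 0.114), and their part in the result was not tested.

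The share of each Tead gene in the sum of all 4, in CPM per kilobase, does not depend on scaling. Tead4 made up 50.98% to 58.4% in CTRL MCAo and 62.5% to 71.1% in YT-iKO MCAo, with no overlap. Tead2 had 22.9% to 27.4% and 17.3% to 19.8% of the sum in those groups, with no overlap. Shares add up to 100%, so a higher share of Tead4 lowers the others, and the Tead2 levels themselves overlapped after MCAo. After sham the shares of Tead4 overlapped (55.3% to 61.2% in CTRL and 59.5% to 66.3% in YT-iKO), as did those of Tead2. Those of Tead1 did not overlap after sham (17.1% to 18.9% in CTRL and 11.7% to 16.6% in YT-iKO). The same separations were present with the even background taken off. These shares are a description and were not tested.

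Set against their DNA-binding partners, YAP and TAZ transcripts were 1.76 to 2.04 times the Tead sum in CTRL Sham and 0.557 to 0.672 times in YT-iKO Sham. In CTRL MCAo the ratio was 2.19 to 2.44 and in YT-iKO MCAo 0.509 to 0.746. All CTRL MCAo libraries were above all CTRL Sham libraries, and the YT-iKO groups overlapped. Whether this differed between genotypes was not tested for the ratio. Coactivator RNA was thus more abundant than Tead RNA per length in each CTRL library and less abundant in each YT-iKO library.

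**Figure D3:**
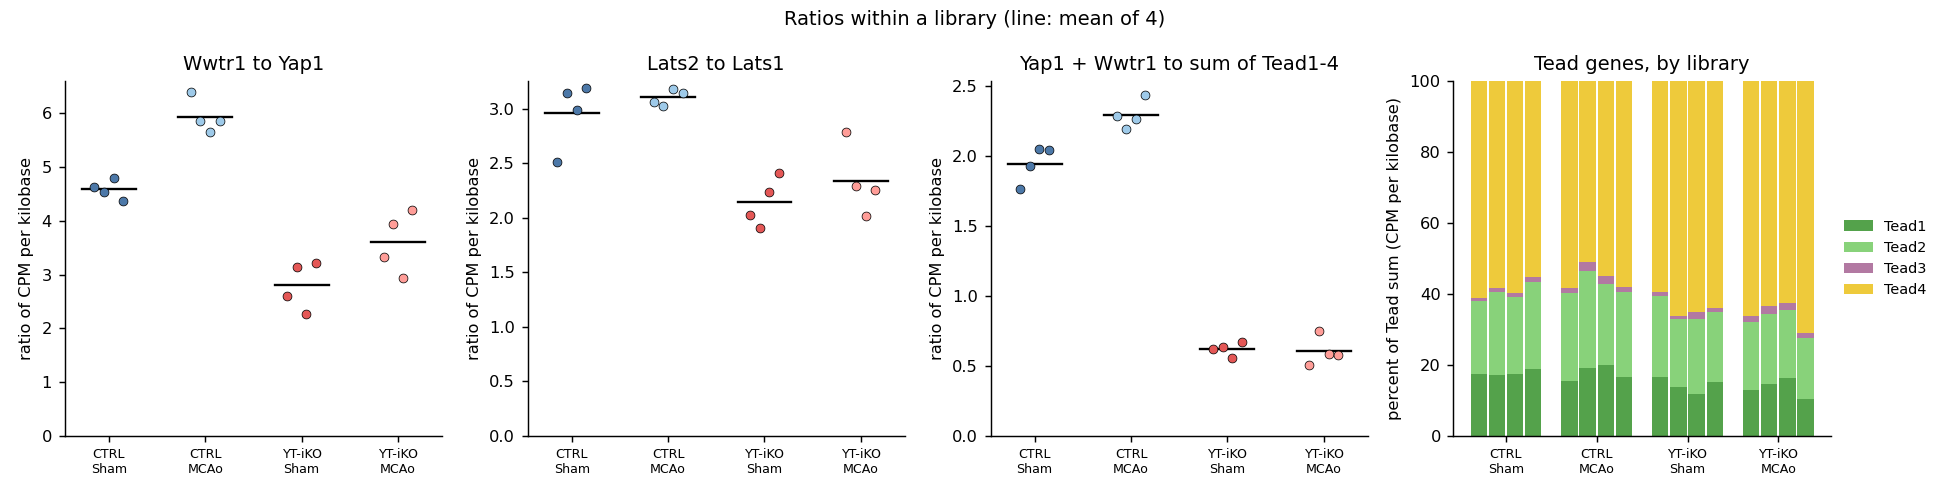
Ratios of CPM per kilobase within each library for Wwtr1 to Yap1, Lats2 to Lats1, and Yap1 plus Wwtr1 to the sum of the 4 Tead genes (line: mean of 4), and the percent of that Tead sum taken by each Tead gene in every library (stacked bars). YT-iKO libraries lie below CTRL libraries of the same surgery in the first 3 panels, and Tead4 takes 50.98% to 71.1% of the Tead sum.

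Lats1 and Lats2 encode the kinases that phosphorylate YAP and TAZ, and Lats2 is also widely used as a YAP/TAZ target gene. Lats2 (ENSMUSG00000021959; minus strand of chromosome 14, 57689662 to 57758388) had 251.7, 281.0, 275.8 and 273.7 CPM in CTRL Sham. In YT-iKO Sham it had 198.6, 203.4, 146.4 and 178.3 CPM. Every YT-iKO Sham library was below every CTRL Sham library. After MCAo it had 340.4, 223.0, 182.1 and 279.9 CPM in CTRL and 252.3, 124.5, 148.4 and 273.9 CPM in YT-iKO, and the groups overlapped. The log2 fold change was −0.57 after sham (95% interval −1.10 to −0.0442, adjusted p = 0.990) and −0.36 after MCAo (−0.889 to 0.170, adjusted p = 1.00), by edgeR.

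The Lats2 call depended on the scale. With TMM factors from genes of at least 10 CPM, Lats2 fell by 0.43 after sham (95% interval −0.60 to −0.26, adjusted p = 0.0336) and by 0.38 after MCAo (−0.55 to −0.21, adjusted p = 0.0532), by edgeR. Libraries had 235.2 to 262.7 CPM in CTRL Sham and 179.1 to 196.3 in YT-iKO Sham on this scale, and 229.6 to 264.3 and 167.8 to 221.9 after MCAo, so the groups did not overlap after either operation. With this scale 3 of the 10 genes were called in each comparison, against 0.370% of all genes after sham and 0.582% after MCAo. The scale shifted the median log2 fold change of those 9132 genes by 0.141 after sham and by −0.006 after MCAo. The standard error of Lats2 was 0.26 on the first scale and 0.08 on this one in both comparisons. Without the 4 libraries of highest receptor density, on the first scale, the fold change was −0.48 after sham (adjusted p = 0.277, edgeR) and −0.15 after MCAo (0.636).

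Within a library, Lats2 was compared with Lats1, which had 96.2 ± 6.47 CPM (SD, n = 4) in CTRL Sham and 89.9 ± 20.4 in YT-iKO Sham, and 86.6 ± 23.98 and 88.8 ± 29.8 after MCAo. The Lats2 to Lats1 ratio in CPM per kilobase was 2.51, 3.15, 2.99 and 3.19 in CTRL Sham and 2.03, 1.91, 2.24 and 2.42 in YT-iKO Sham. After MCAo it was 3.07, 3.02, 3.19 and 3.15 in CTRL and 2.79, 2.30, 2.02 and 2.26 in YT-iKO. YT-iKO libraries were lower than all CTRL libraries after either operation. The log2 ratio differed by −0.46 after sham and −0.42 after MCAo (exact two-sided permutation test, p = 0.0286 each, 0.0457 adjusted over 8 ratio tests). The exact p was 0.0571 after sham with any 1 YT-iKO Sham library left out, and after MCAo with any 1 CTRL MCAo library left out. This is the next possible value above 0.0286, and the groups still did not overlap. Between MCAo and sham the difference was 0.08 in CTRL (exact p = 0.514) and 0.12 in YT-iKO (exact p = 0.371), with overlap in both. In the annotation, 2955 bases (42.4%) of the Lats2 exons are shared on the same strand with Gm49361, which was not analysed here. How the counting treated reads in shared exons is not given in the sources used here, so the level of Lats2 per length, and its place in the order of the 10 genes, are uncertain.

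Nf2 encodes Merlin, and Vgll4 a cofactor that occupies TEAD in place of YAP and TAZ. Nf2 lies on the minus strand of chromosome 11 from 4765845 to 4849536, and its level was 125.8 ± 4.85 CPM (SD, n = 4) in CTRL Sham and 112.0 ± 16.6 in YT-iKO Sham, and 111.4 ± 26.1 and 110.0 ± 31.3 after MCAo. Its log2 fold changes between genotypes were −0.17 (95% interval −0.63 to 0.30) and −0.02 (−0.48 to 0.45). Vgll4 (minus strand of chromosome 6, 114860628 to 114969994) had group means of 46.1 to 47.4 CPM, and its fold changes between genotypes were −0.02 after sham (−0.51 to 0.48) and 0.04 after MCAo (−0.45 to 0.53). On the scale of abundant genes the intervals were narrower, −0.14 to 0.10 after sham and −0.14 to 0.10 after MCAo for Nf2. For Lats1 they were −0.15 to 0.22 and −0.16 to 0.22. These 3 genes were not called between genotypes on either scale.

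**Figure D4:**
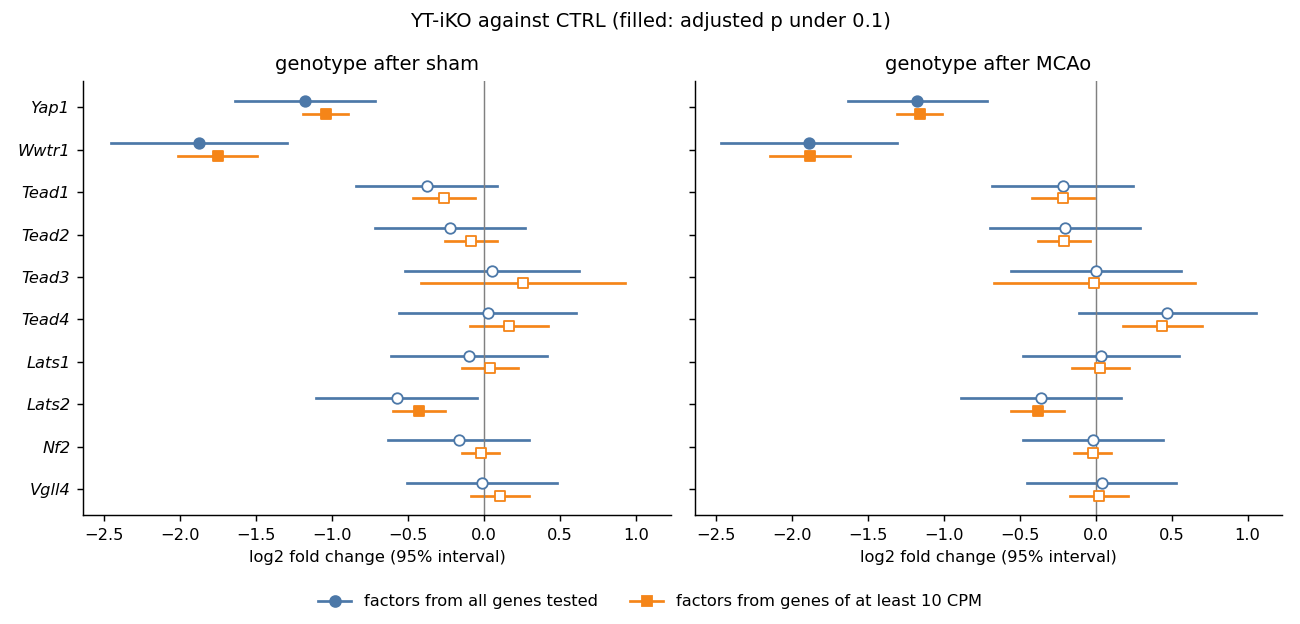
Log2 fold change of YT-iKO against CTRL with its 95% interval (edgeR) for each gene after sham and after MCAo, with TMM factors from all genes tested (circles) and from genes of at least 10 CPM (squares). Filled symbols have an adjusted p under 0.1. They are those of Yap1 and Wwtr1 on both scales and of Lats2 on the second.

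None of the 10 genes was called between MCAo and sham, in CTRL or in YT-iKO, at an adjusted p under 0.1 by edgeR. Over all genes tested 0.216% were called in CTRL and 0.318% in YT-iKO. At an unadjusted p under 0.05, 1 of the 10 (Tead3) was found in each genotype, against 3.50% of all genes in CTRL and 3.01% in YT-iKO, and DESeq2 called none of the 10. By limma-voom with sample quality weights, 1 of the 10 was called higher and 4 lower in CTRL, and 1 higher and 1 lower in YT-iKO. It called 24.2% and 18.1% of all genes tested there. Tead3 was also the only one of the 10 whose MCAo and sham libraries did not overlap in CPM, against 4.14% of all genes in CTRL and 1.28% in YT-iKO.

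Wwtr1 after MCAo ranged from 234.5 to 437.6 CPM in CTRL against 252.6 to 275.7 after sham, a log2 fold change of 0.31 (95% interval −0.25 to 0.87, adjusted p = 1.00, edgeR). On the scale of abundant genes the groups did not overlap (240.9 to 252.2 CPM after sham and 295.7 to 346.7 after MCAo). The fold change there was 0.38 (0.127 to 0.633, adjusted p = 0.205 by edgeR). In YT-iKO mice it was 0.30 on the first scale and 0.25 on the second (−0.00210 to 0.51, adjusted p = 0.760). With 1 library left out, the value on the first scale was 0.20 to 0.41 in CTRL and 0.01 to 0.45 in YT-iKO. The lowest value of Wwtr1 over all alternatives was 0.03 in CTRL and −0.22 in YT-iKO. Yap1 had fold changes of −0.07 (−0.52 to 0.38) in CTRL and −0.06 (−0.52 to 0.39) in YT-iKO. Its lowest value over all alternatives was −0.31 in CTRL and −0.34 in YT-iKO.

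The MCAo response did not pass the test of a difference between genotypes for any of the 10 genes, and 0% of all genes tested passed it. At an unadjusted p under 0.05 it was 0 of the 10 against 0.373% of all genes, and DESeq2 called none. The largest estimate was that of Tead4 (0.45, 95% interval −0.37 to 1.27), and it was 0.11 to 0.60 with 1 library left out. The intervals allowed differences of −0.64 to 0.65 for Yap1 and −0.80 to 0.79 for Wwtr1 on the log2 scale. On the scale of abundant genes, which shifted the median of those genes by −0.146 in this comparison, the intervals were −0.32 to 0.09 for Yap1 and −0.49 to 0.24 for Wwtr1.

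**Figure D5:**
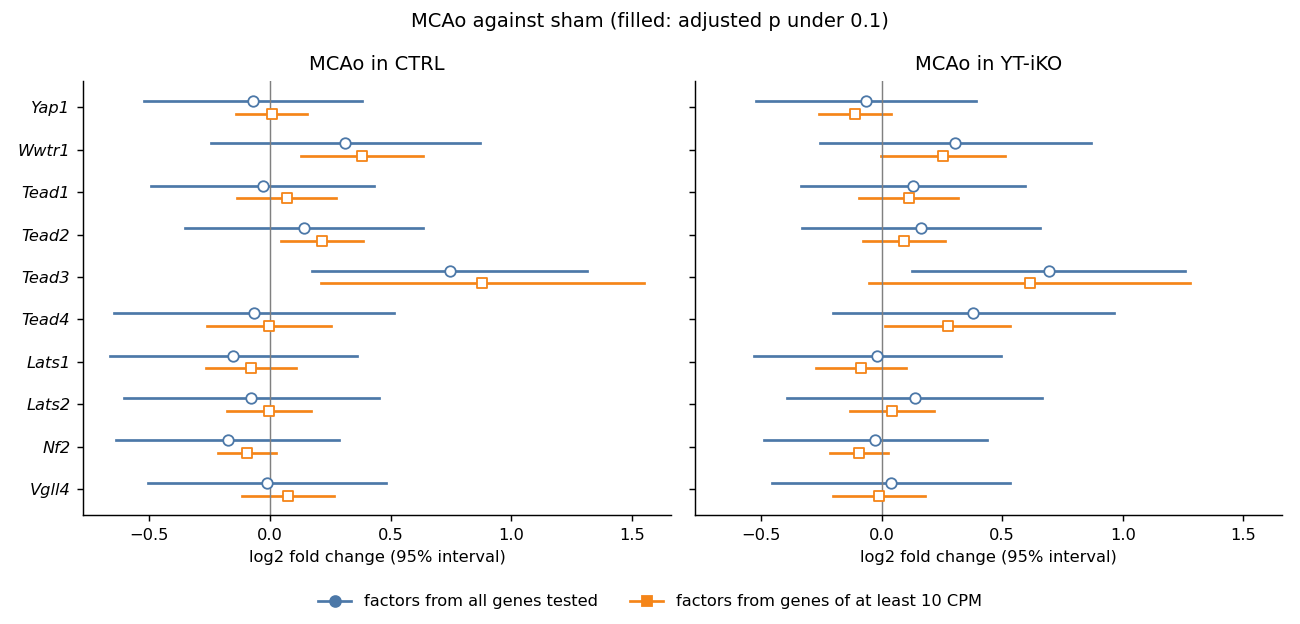
Log2 fold change of MCAo against sham with its 95% interval (edgeR) for each gene in CTRL and in YT-iKO, with TMM factors from all genes tested (circles) and from genes of at least 10 CPM (squares). No symbol is filled, since no adjusted p is under 0.1, and Tead3 has the highest value in both panels.

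Markers of other cells were set beside these comparisons. Summed endothelial markers had a mean of 24280 CPM in CTRL Sham and 18750 in YT-iKO Sham (−0.40 on the log2 scale, exact p = 0.0571) and 22370 and 19230 after MCAo (−0.23, exact p = 0.457). Summed pericyte markers were 982.3 and 773.4 CPM after sham (−0.37, exact p = 0.0857). Summed astrocyte markers were 101.4 to 115.6 CPM in CTRL Sham and 64.3 to 90.1 in YT-iKO Sham, without overlap (−0.45, exact p = 0.0286). Gja1 made up most of this sum (median 63.9 CPM in CTRL Sham) and had a log2 fold change of −0.71, and 4 of the 8 markers had a value above 0, among them Aldh1l1 (0.64) and Gfap (0.25). Summed oligodendrocyte markers were higher after MCAo in CTRL, from 20.9 to 27.6 CPM after sham and 27.7 to 33.1 after MCAo, without overlap (0.30, exact p = 0.0286), and their part in the MCAo values of Tead3 and Wwtr1 was not tested. Smooth muscle, neuron, microglia, leukocyte and red cell sums overlapped in all 4 comparisons of groups. The part of the endothelial, pericyte and astrocyte sums in the genotype comparisons of Yap1, Wwtr1, Tead1 and Lats2 was not tested.

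The rest of the pathway was followed in lists chosen with results of these data known. Upstream of LATS, 16 genes of the core kinases and their adaptors were tested (among them Stk3 and Stk4, which encode the MST kinases, and Sav1 and Mob1a, their scaffolds). None was called in any of the 5 comparisons by edgeR (0% to 0.318% of all genes) or DESeq2 (0% to 0.646%). None had an unadjusted p under 0.05 by edgeR. Their median log2 fold change between genotypes was −0.15 after sham and 0.03 after MCAo, near those of all genes of at least 10 CPM. Mob1a had the smallest p after sham (−0.38, adjusted p = 0.990, groups not overlapping) and Map4k3 after MCAo (0.27, adjusted p = 1.00). By limma-voom with sample quality weights, 5 of the 16 were called lower with MCAo in CTRL, where 24.2% of all genes were called. In YT-iKO it called 4 lower, against 18.1% of all genes. It called none of the 16 between genotypes.

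Of 22 membrane and junction regulators, 1 was called between genotypes by edgeR, after sham and after MCAo, where 0.0965% and 0.0708% of all genes were. This was Amotl2, an angiomotin family member that binds YAP at junctions and is itself a YAP/TAZ target. Its fold change was −2.02 after sham (adjusted p = 2.73e-04, edgeR) and −1.95 after MCAo (7.49e-04), each with a standard error of 0.24 on the log2 scale. Ptpn14, a phosphatase that binds YAP, had −0.57 after sham without overlap (adjusted p = 0.990), and Dchs1, a protocadherin, −0.70 after MCAo (adjusted p = 1.00). With MCAo none of the 22 was called by edgeR (0.216% of all genes in CTRL and 0.318% in YT-iKO) or DESeq2 (0.549% and 0.646%). Patj, a polarity protein, had −0.38 in CTRL (adjusted p = 1.00). By limma-voom with sample quality weights, 5 of the 22 were called higher and 7 lower with MCAo in CTRL, against 24.2% of all genes. In YT-iKO it called 3 higher and 5 lower, against 18.1%. Between genotypes it called 1 of the 22 after sham and 3 after MCAo, all lower in YT-iKO. The shares of all genes were 0.46% and 0.827%.

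Of 21 LIM proteins, STRIPAK components and RASSF genes none was called by edgeR. The LIM proteins Ajuba and Trip6, which bind LATS kinases, had the smallest p after sham. Ajuba had −1.15 (standard error 0.29, adjusted p = 0.440) and Trip6 −0.79 (0.21, adjusted p = 0.715), both without overlap. After MCAo Trip6 had −0.76 (0.21, adjusted p = 0.765), again without overlap. DESeq2 called both after sham (Ajuba −1.16, adjusted p = 0.0308, and Trip6 −0.79, 0.0728) and Trip6 after MCAo (−0.79, adjusted p = 0.0692), where it called 0.176% and 0.211% of all genes. With MCAo, Rassf2 had 0.77 in CTRL and Ajuba 0.75 in YT-iKO, with adjusted p of 1.00 for both by edgeR. By limma-voom with sample quality weights, 2 of the 21 were called between genotypes after sham and 2 after MCAo, all lower in YT-iKO. It called 0.46% and 0.827% of all genes in these comparisons. With MCAo in CTRL it called 2 of the 21 higher and 8 lower, against 24.2% of all genes. In YT-iKO it called 1 higher and 5 lower, against 18.1%. Of 20 other cofactors, 14-3-3 proteins and factors of YAP turnover, none was called in any comparison by edgeR or DESeq2 or had an unadjusted p under 0.05 by edgeR. Runx1 had the smallest p after sham (0.50, adjusted p = 0.990 by edgeR). By limma-voom with sample quality weights, 2 of the 20 were called higher and 7 lower with MCAo in CTRL, against 24.2% of all genes. In YT-iKO it called 2 higher and 6 lower, against 18.1%. Between genotypes it called none of the 20.

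Downstream, 1 of 22 YAP/TAZ target genes, again Amotl2, was called between genotypes by edgeR after sham and after MCAo (0.0965% and 0.0708% of all genes), and 7 and 3 had an unadjusted p under 0.05, against 2.16% and 1.49% of all genes tested. The list also holds Lats2 and Ptpn14. The matrix protein gene Ccn2 (CTGF) had −1.48 and −1.34 after sham and MCAo (standard error 0.44 each, adjusted p = 0.990 and 1.00). Ccn1 (CYR61) had −1.37 and −2.13 (0.63, adjusted p = 0.984 for the latter). Ankrd1 had 0.13 and −0.13, with wide 95% intervals of −1.18 to 1.44 and −1.44 to 1.17. The median log2 fold change was −0.19 after sham, with 9 of 22 above 0, and −0.12 after MCAo, with 8 of 22 above 0. With MCAo none was called by edgeR, and 6 in CTRL and 7 in YT-iKO had an unadjusted p under 0.05, against 3.50% and 3.01% of all genes. The median was 0.31 for CTRL mice and 0.17 for YT-iKO mice, and 0.07 and −0.02 over all genes. The smallest p in each were those of Tgfb2 (−0.75, adjusted p = 0.887) and Myof (1.11, adjusted p = 0.296). DESeq2 called none in CTRL, and Myof (1.09, adjusted p = 0.0316) and Tgfb2 (−0.88, 0.0779) in YT-iKO, against 0.549% and 0.646% of all genes. By limma-voom with sample quality weights, 4 of the 22 were called between genotypes after sham and 6 after MCAo, all lower in YT-iKO. It called 0.46% and 0.827% of all genes in these comparisons. With MCAo in CTRL it called 6 of the 22 higher and 3 lower, against 24.2% of all genes. In YT-iKO it called 2 higher and 2 lower, against 18.1%.

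For each of the 9 members averaging 10 CPM or more, the genes with the most similar pattern over the 16 libraries were found by Pearson's r of log2(CPM + 1) among 9132 genes. The 16 points fall into 4 groups and share library scaling and even background, so r is a description only. Yap1 was closest to Slc16a4 (r = 0.977), Tm6sf1 (0.969) and Wwtr1 (0.967), and Wwtr1 to Tm6sf1 (0.968), Yap1 and Vash1 (0.952). For these the libraries separate by genotype. Tead2 was closest to Plekhg2 (0.977), Tead4 to Unc13b (0.973), Tead1 to Ncoa6 (0.940) and Vgll4 to Srsf4 (0.966). Lats1 was closest to Mcmbp (0.980), Lats2 to Pcyt1a (0.981) and Nf2 to Rbm10 (0.982). Between members, the highest r after that of Yap1 and Wwtr1 were 0.897 for Tead2 and Lats2 and 0.896 for Lats1 and Nf2.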

How the data were processed

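The members and all gene lists were chosen with earlier results of these data known. The authors amplified RNA with a SMART-Seq kit, mapped reads with STAR 2.7.8a to GRCm38 and deposited raw counts per gene. The counting program and its use of strand are not given in the sources used here. All 37003 genes deposited reach 5 counts in 3 or more libraries. Columns named WT and KO were read as CTRL and YT-iKO. Reads carry no molecular identifiers and can include copies of 1 molecule. Positions and exon lengths came from GENCODE M21 (GRCm38), which holds 36861 of the 37003 identifiers.

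The study names DESeq2 and no formula. Here edgeR 4.0.16 (R 4.3.3) was the main tool: quasi-likelihood test, TMM factors, filterByExpr (minimum count 10, total 15), 1 model of 4 groups, Benjamini-Hochberg adjustment over 31085 genes, and a threshold of 0.1. The even background was the density of reads on receptor genes times exon length. Levels and ratios were compared by exact two-sided permutation tests of log2(CPM + 1) or log2 ratios. For 4 against 4 libraries (70 assignments) the smallest p is 0.0286. Values by library are given for members changed by over 1.5-fold in a comparison, for Tead1, Lats2 and Tead4 where groups separated on a scale, and for the ratios. From each list, genes called in any comparison and the 2 with the smallest p per comparison were eligible to be named. Ankrd1 was added after its values were seen. Alternatives were DESeq2 1.42.0, limma-voom 3.58.1 with quality weights, RLE factors, TMM factors from genes of at least 10 CPM, other filters, a threshold of 0.05, only the groups compared, a replicate block, a pseudocount of 0.1, the even background taken off, and each library left out.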

Additional observations from a re-analysis of the deposited data

Results flagged for a closer look

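In 2 of 68 sets of 4 libraries checked, 1 library lay far from the other 3, where chance alone gives about 1 in 20 sets. Tead1 in CTRL Sham replicate 1 was 90.98 CPM, and the other 3 libraries of that group had 80.6 to 81.7 CPM. Without it, no member other than Yap1 and Wwtr1 was called in any comparison. Tead3 made up 2.214% of the summed Tead level per length in YT-iKO Sham replicate 3, and 0.863% to 1.09% in the other 3 libraries. That library had the highest density of reads on receptor genes of the 16. With the even background taken off, the 4 libraries of that group had 0.308% to 0.617%.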

How the results depend on the processing

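Of 1290 fold changes of members under alternatives, 1274 kept their side of the threshold, 10 gained and 6 lost a call, and no called value changed sign. Of the 50 main values, 32 changed sign in some alternative, and none of the 32 was called in the main analysis. With 1 library left out, the members called numbered 1 to 2 of 10 after sham and 1 to 2 after MCAo. Wwtr1 was called in each. Over all genes these fits called 12 to 43 after sham and 11 to 47 after MCAo. In limma-voom with sample quality weights, 5 members were called with MCAo in CTRL (Tead3 higher, and Nf2, Tead4, Lats1 and Yap1 lower). In YT-iKO there were 2 (Tead3 higher and Nf2 lower). In all, 7538 genes passed in CTRL and 5626 in YT-iKO, against 67 and 99 by edgeR. The cause was not tested. It also called Lats2 after MCAo (−0.59, adjusted p = 0.0626). DESeq2 called 65 genes after sham and 78 after MCAo, factors from abundant genes 115 and 181, against 30 and 22 in the main analysis. Leaving out 1 library gave log2 differences in the Lats2 to Lats1 ratio of −0.54 to −0.41 after sham and −0.51 to −0.35 after MCAo. The exact p rose to 0.0571 after sham without any 1 YT-iKO Sham library, and after MCAo without any 1 CTRL MCAo library. The groups still did not overlap, and 0.0571 is the next possible value above 0.0286. Under the same omissions the Wwtr1 to Yap1 ratio kept its exact p of 0.0286 between genotypes and with MCAo in CTRL (exact permutation test).

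Replicate numbers were not taken as pairs, since no source ties them to shared animals or days and not every pair correlated: 15 of 24 same-number pairs had r over 0.1 in their deviations (median 0.199, against −0.115 in 72 other pairs), and 7 of 16 libraries correlated best with their own number, a hint of shared deviations. With a replicate block, 2 members were called after sham and 2 after MCAo, as without it, and 0 with MCAo in either genotype. Over all genes, the block gave 40 calls after sham, 34 after MCAo, 119 with MCAo in CTRL and 132 in YT-iKO, against 30, 22, 67 and 99 without it. Tead3 had the fewest counts of the 10 genes, 32 to 89 in a library, and 5.56% to 77.9% of them equal the even background.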
